A study of Mus musculus with 6 samples.

Results

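The subunits and assembly factors of respiratory complexes II, III and IV, of cytochrome c and of complex V (the ATP synthase) were followed in mouse cortical neurons after knockdown of Opa1, the inner-membrane fusion protein of mitochondria. Genes were taken by symbol: protein-coding genes whose symbols start with Sdha, Sdhb, Sdhc, Sdhd, Uqcr, Uqcc, Atp5 or Cox and a digit, together with Cyc1, Cycs, Surf1, Sco1, Sco2, Bcs1l, Ttc19 and Lyrm7. This gave 73 of the 55471 genes listed, of which 50 code for subunits and 23 for assembly factors, and 67 passed the filter on low counts. RNA came from wild-type primary neurons of CD1 mouse embryos (embryonic day 15 or shortly before), kept in culture for 11 days with 2 µM of the mitotic inhibitor cytosine arabinoside and transduced with lentivirus on day 6. The 3 shControl libraries received a control short hairpin RNA and the 3 shOpa1 libraries a hairpin against Opa1. Lentivirus, cytosine arabinoside and the neuronal medium were common to both groups. The labels describe biological replicates without saying whether each came from its own litter, so a p-value here reflects only how far these libraries scatter. The cultures are a mixture of cell types and the hairpin lowers Opa1 without deleting it.

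Complex II (succinate dehydrogenase) oxidises succinate and passes electrons to ubiquinone, complex III passes them on to cytochrome c, and complex IV (cytochrome c oxidase) hands them to oxygen. Complexes III and IV pump protons, and complex V uses the proton gradient to make ATP. Complex II is encoded wholly in the nucleus, whereas complexes III, IV and V each join nuclear subunits to a catalytic or membrane core encoded in mitochondrial DNA. Assembly factors insert haem, copper and iron-sulfur centres or hold intermediates, and several complex IV subunits exist as tissue isoforms, with muscle and testis forms beside the form used in most tissues.

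Opa1 measured 202, 205 and 202 CPM (each count over its TMM-scaled library size) in the shControl libraries and 10.2, 8.64 and 8.50 CPM in the shOpa1 libraries, so every library matched its label. Library totals ran from 24676709 to 32961580 counts. The tested members held from a mean of 10.5 counts per library (Cox20) to 41374 (Atp5b), and 65 of the 67 averaged at least 100. On the second principal component the libraries of replicate 3 lay at -29.4 and -30.4 and the other 4 at 13.8 to 16.4. Same-numbered libraries deviated together, so counts of calls are also given from a model that adds replicate as a blocking term (the blocked fit). Of 10 cortical neuron markers 7 were lower in shOpa1, 10 in the blocked fit, beside 20% and 30.7% of all tested genes. Their summed level was 6376 to 6794 CPM in shControl and 4037 to 4480 CPM in shOpa1. The part of these markers in the results was not tested. In these bulk samples, fewer cells of a type and less RNA per cell cannot be told apart.

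Nuclear genes of complexes II to V were more often higher than lower after Opa1 knockdown. In edgeR's quasi-likelihood test with Benjamini-Hochberg adjustment over all 16562 tested genes, 20 of the 67 members were higher at an adjusted p under 0.05 (29.9%) and 4 were lower (5.97%). Over all tested genes the shares were 18.9% higher and 20% lower, 38.9% in either direction, close to the 35.8% of members called in either direction. The blocked fit called 42 members higher (62.7%) and 7 lower (10.4%), against 28.8% and 30.7% of all genes. The median log2 fold change of the members was 0.18, and -0.01 over all genes. It was 0.20 within the pairs numbered 1 and 2 and 0.21 within pair 3. Fold changes were positive in 53 of the 67 members (79.1%, against 49.3% of all genes), and their 10th to 90th percentiles ran from -0.20 to 0.43, a narrower range than the -0.80 to 0.60 of all genes. Libraries of the groups did not overlap for 29 members, 24 of them higher in shOpa1 and 5 lower, while 51.8% of all tested genes had no overlap, 25.8% higher and 26.0% lower. The subunits and the assembly factors differed in pattern: 12 of 45 subunits were higher and 0 lower, 33 and 2 in the blocked fit, whereas of 22 assembly factors 8 were higher and 4 lower, 9 and 5 in the blocked fit. The difference between these classes was not tested. The authors' deposited table called 37 members higher and 6 lower, beside 20.2% and 20.7% of its 19398 genes with an adjusted p, and all 24 members called here were called there with the same sign. Leaving out shOpa1 replicate 1 or replicate 2 lowered the number of members higher from 20 to 12 or 11. Over all genes the number higher went from 3130 to 2255 or 2168. Leaving out shControl replicate 1, shControl replicate 2 or shOpa1 replicate 2 lowered the number of members lower from 4 to 2. Over all genes the number lower went from 3312 to 2656, 2505 or 2421.

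**Figure D1:**
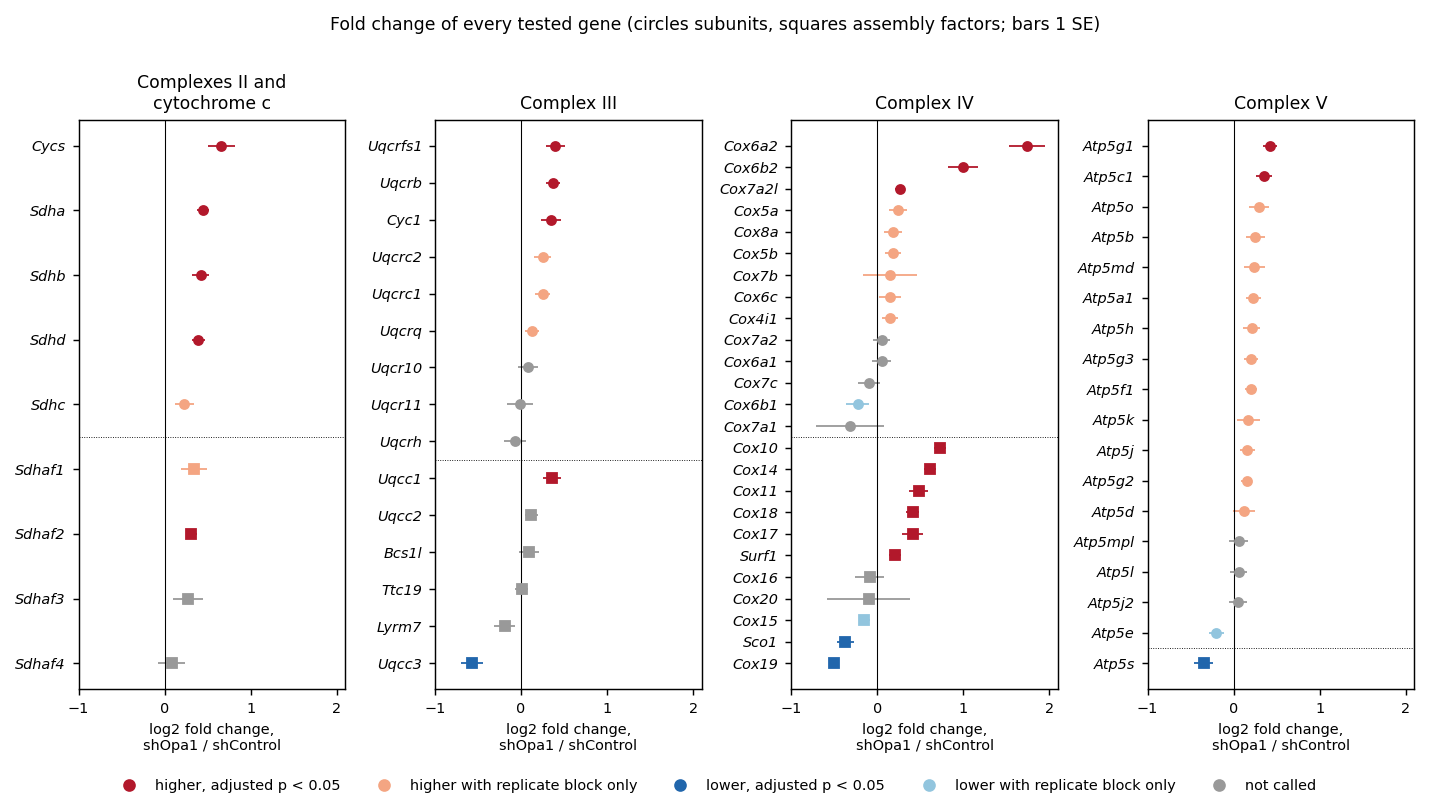
Log2 fold change (shOpa1 over shControl, x axis) of each of the 67 tested genes, by complex, with bars of 1 standard error. Circles are subunits and squares assembly factors. Most subunits lie just right of 0, Cox6a2 at 1.74 and Cox6b2 at 1.00 lie far from the other complex IV subunits, and Uqcc3, Cox19, Sco1 and Atp5s are the 4 genes called lower.

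In complex II 3 of 4 subunits and 1 of 4 assembly factors were higher in shOpa1. All 8 genes had positive fold changes (median log2 0.33), 0 were lower, and the blocked fit called 6 higher. Beside these counts stand 18.9% of all tested genes higher and 20% lower, 28.8% and 30.7% in the blocked fit. Whether complex II differs from these shares was not tested. Sdha, the flavoprotein that oxidises succinate, measured 252, 256 and 248 CPM in shControl and 342, 373 and 319.9 CPM in shOpa1. Every shOpa1 library lay above every shControl library, with a log2 fold change of 0.45 ± 0.0689 (SE, n = 3 per group; edgeR quasi-likelihood, adjusted p = 0.0022). Sdhb, the iron-sulfur subunit that takes electrons from Sdha, went from 154, 153 and 131 CPM to 204, 209 and 171 CPM, a log2 fold change of 0.42 ± 0.0993 (edgeR adjusted p = 0.0142). Sdhd, a membrane anchor at the ubiquinone site, measured 137, 143 and 129 CPM in shControl and 178, 192 and 166 CPM in shOpa1, a log2 fold change of 0.39 ± 0.0747 (edgeR adjusted p = 0.00565). Neither gene overlapped between the groups. Sdhc, the other anchor, had 122, 112 and 102 CPM and then 141, 141 and 113 CPM. Its shOpa1 replicate 3 lay inside the shControl range, and its log2 fold change of 0.23 ± 0.107 was called only in the blocked fit (edgeR adjusted p = 0.126, blocked 0.00218). Per kilobase of coding sequence the shControl levels were 284 CPM for Sdhd, 220.3 for Sdhc, 172 for Sdhb and 126 for Sdha.

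Among the complex II assembly factors, Sdhaf2, which helps attach FAD to Sdha, measured 35.1, 32.9 and 33.7 CPM in shControl and 39.9, 42.6 and 43.99 CPM in shOpa1. Its groups did not overlap (log2 fold change 0.31 ± 0.0679, edgeR adjusted p = 0.00944). Sdhaf1, which serves the iron-sulfur centres of Sdhb, was higher only in the blocked fit (log2 0.34 ± 0.148, edgeR adjusted p = 0.114, blocked 0.0323), and 69.6% of its exon bases are shared with another annotated gene, which unstranded counting cannot separate. Sdhaf3 (log2 0.27) and Sdhaf4 (log2 0.08) passed neither fit. The Sdhb call was lost without shOpa1 replicate 1 (edgeR adjusted p = 0.0546) or replicate 2 (0.0561).

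**Figure D2:**
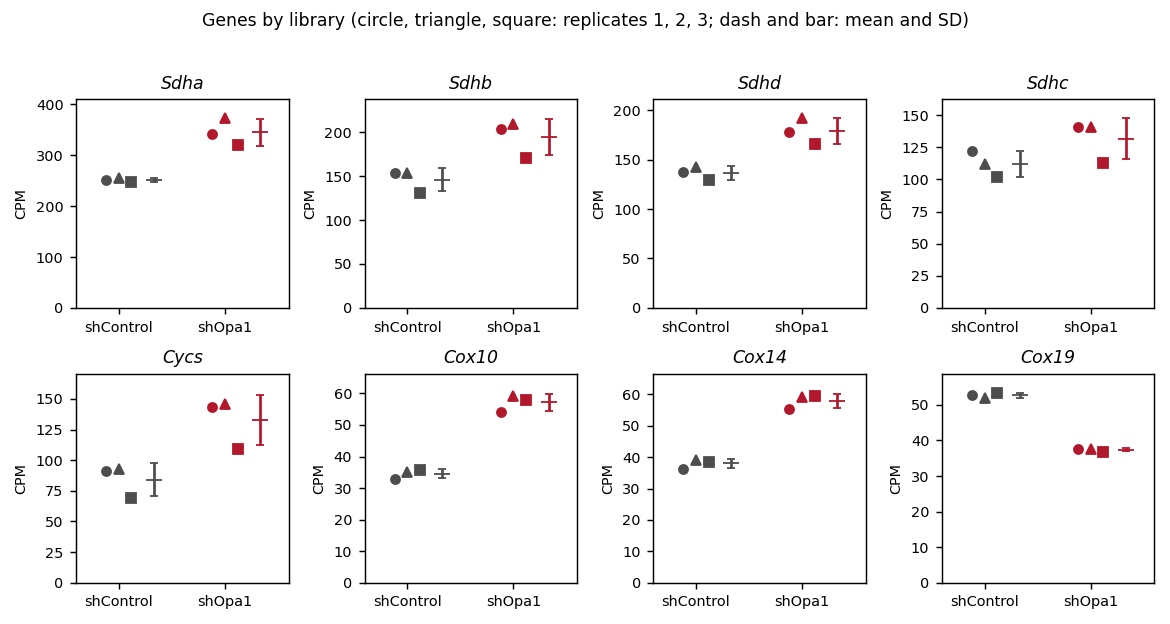
TMM-scaled CPM (y axes, from 0) of 4 complex II subunits, Cycs and 3 complex IV assembly factors in each library. Symbols mark the replicate number, and the dash and bar give the mean and SD of 3 libraries. Sdhc is the gene here whose groups overlap, and Cox19 is the gene that is lower in shOpa1, at 36.9 to 37.7 CPM against 51.98 to 53.4 CPM.

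The promoters of Sdha, Sdhb and Sdhd, and that of Cycs described next, are shown because these genes of joined function were higher together and each holds a core motif of NRF1, a transcription factor known for its sites in genes of respiratory proteins. Capitals mark matches on either strand to the NRF1 core (GCGCANGC), the ETS core (CCGGAAG, bound by GABP among other factors) or the YY1 core (AAGATGGC). The sequences are from RefSeq on GRCm38.p6, from 250 bases before to 50 bases after the gene's start, at chr13:74350191-74350490 (minus strand) for Sdha, chr4:140961021-140961320 (plus strand) for Sdhb, chr9:50603800-50604099 (minus strand) for Sdhd and chr6:50566520-50566819 (minus strand) for Cycs.
Sdha: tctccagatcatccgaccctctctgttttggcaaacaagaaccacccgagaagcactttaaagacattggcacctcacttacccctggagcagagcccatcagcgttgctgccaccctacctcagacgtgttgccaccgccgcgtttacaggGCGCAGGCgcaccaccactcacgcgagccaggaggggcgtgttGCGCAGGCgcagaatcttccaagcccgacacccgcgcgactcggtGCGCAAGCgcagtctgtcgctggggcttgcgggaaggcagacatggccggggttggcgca
Sdhb: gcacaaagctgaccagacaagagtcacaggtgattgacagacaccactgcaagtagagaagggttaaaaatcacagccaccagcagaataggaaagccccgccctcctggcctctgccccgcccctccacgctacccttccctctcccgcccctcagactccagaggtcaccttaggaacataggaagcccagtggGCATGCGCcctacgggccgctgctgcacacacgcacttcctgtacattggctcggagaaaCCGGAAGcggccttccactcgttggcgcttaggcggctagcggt
Sdhd: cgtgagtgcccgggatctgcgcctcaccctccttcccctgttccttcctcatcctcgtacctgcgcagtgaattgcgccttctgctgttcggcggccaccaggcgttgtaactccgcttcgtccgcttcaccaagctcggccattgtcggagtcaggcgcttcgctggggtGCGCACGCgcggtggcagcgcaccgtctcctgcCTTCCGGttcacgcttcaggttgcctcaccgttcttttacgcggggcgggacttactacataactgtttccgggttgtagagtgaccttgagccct
Cycs: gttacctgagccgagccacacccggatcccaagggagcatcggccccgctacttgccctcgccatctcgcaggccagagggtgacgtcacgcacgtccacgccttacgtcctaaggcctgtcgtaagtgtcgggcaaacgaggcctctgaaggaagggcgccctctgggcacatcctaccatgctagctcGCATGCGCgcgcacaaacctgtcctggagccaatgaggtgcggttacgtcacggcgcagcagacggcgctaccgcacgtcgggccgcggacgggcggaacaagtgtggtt
Sdha held 3 NRF1 cores, with first bases at -98, -55 and -10 from the start. Sdhb held 1 at -54 with an ETS core at 7, Sdhd 1 at -79 with an ETS core at -46, and Cycs 1 at -60. Promoters were found for 58 of the 73 members. The NRF1 core stood in 36.2% of these members and in 11.2% of all 27025 genes of the table, and the ETS core in 41.4% against 9.93%. The YY1 core stood in 10.3% against 3.19%, the CCAAT box (CCAAT) in 50.0% against 41.1%, and the core of the C/EBP-ATF response element (TGATGNAA) in 0 of the 58 members against 4.51% of genes. Among the 15 higher members with a promoter in the table, 5 held the NRF1 core, so the motif was about as frequent there as in the members at large. A match describes these letters and does not show binding.

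In complex III the Rieske protein, cytochrome c1 and Uqcrb were higher. Of 9 subunits 3 were higher and 0 lower, 6 and 0 in the blocked fit, with a median log2 fold change of 0.25. The share higher was 33.3%, beside 18.9% of all tested genes, and 66.7% with the block, beside 28.8%. Uqcrfs1, the Rieske iron-sulfur protein, measured 124, 119 and 101 CPM in shControl and 154, 167 and 133 CPM in shOpa1. These groups did not overlap (log2 fold change 0.40 ± 0.109, edgeR adjusted p = 0.0232). Cyc1, the haem-bearing cytochrome c1, went from 195, 209 and 164 CPM to 243, 266 and 212 CPM, and its lowest shOpa1 library lay just above the highest shControl library (log2 0.35 ± 0.115, edgeR adjusted p = 0.0487). Uqcrb, a small subunit at the ubiquinone side, measured 78.8, 80.8 and 71.01 CPM and then 102, 104 and 91.2 CPM (log2 0.37 ± 0.0798, edgeR adjusted p = 0.00968). The core proteins Uqcrc1 and Uqcrc2 both had log2 fold changes of 0.25 and were called only in the blocked fit (adjusted p = 0.000337 and 0.000342). Uqcrq, with a log2 fold change of 0.13, was likewise called only there (adjusted p = 0.0209). Uqcr10 (0.08), Uqcr11 (-0.01) and the hinge protein gene Uqcrh (-0.07) overlapped between groups and passed neither fit.

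Of the 6 complex III assembly factors 1 was higher and 1 lower, in both fits (16.7% each). Of all tested genes 18.9% were higher and 20% lower, 28.8% and 30.7% in the blocked fit. The 2 factors called belong to one group that acts on newly made cytochrome b. Uqcc1 measured 55.3, 59.2 and 49.8 CPM in shControl and 76.6, 73.2 and 61.01 CPM in shOpa1 (log2 0.36 ± 0.106, edgeR adjusted p = 0.0314). Uqcc3 moved the other way, from 15.1, 16.2 and 14.6 CPM to 9.09, 11.9 and 9.84 CPM (log2 -0.57 ± 0.125, edgeR adjusted p = 0.0099). For each gene the groups did not overlap. Uqcc2, which acts beside Uqcc1, had a log2 fold change of 0.12. Bcs1l (0.09) and Lyrm7 (-0.19), which serve the Rieske protein, and Ttc19 (0.01), which clears its fragments, overlapped between groups and were not called. The count of 4 complex III genes higher fell to 1 or 2 without shControl replicate 1, 2 or 3 or shOpa1 replicate 1 or 2. Calls were lost for Cyc1 without any of these 5 libraries (edgeR adjusted p = 0.0538 to 0.153), for Uqcc1 without all of them but shControl replicate 2 (0.0777 to 0.11), and for Uqcrfs1 without all of them but shControl replicate 1 (0.0513 to 0.083).

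Cycs, somatic cytochrome c, carries electrons between complexes III and IV and is also known as an activator of caspases when released. It measured 91.1, 92.5 and 68.9 CPM in shControl and 143, 146 and 109 CPM in shOpa1. The groups did not overlap, replicate 3 was the lowest of each, and the log2 fold change was 0.66 ± 0.153 (edgeR adjusted p = 0.0137). Its 10 near-identical copies elsewhere in the genome together held 0.702% of its own count. Of these, Gm10053 was identical over all 318 coding bases. The counting command sets no option for reads with several matches, so this low share does not show that the count of Cycs is unaffected. The call was lost narrowly without shOpa1 replicate 1 (edgeR adjusted p = 0.0503) or replicate 2 (0.0518).

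In complex IV the minor isoform genes Cox6a2 and Cox6b2 had the largest fold changes of all tested members. Of 18 subunit genes 14 were tested, 3 were higher (21.4%, near the 18.9% of all tested genes) and 0 lower. The blocked fit called 9 higher (64.3%, beside 28.8% of all genes) and 1 lower (7.14%, beside 30.7%). Cox6a2, the heart and skeletal muscle isoform of subunit 6A that is also described in parvalbumin interneurons of the brain, measured 9.05, 5.64 and 5.93 CPM in shControl and 27.1, 21.03 and 20.8 CPM in shOpa1. The lowest shOpa1 library was above the highest shControl library, and the log2 fold change was 1.74 ± 0.207 (n = 3 per group; edgeR quasi-likelihood, adjusted p = 0.000865). Cox6a1, the isoform of most tissues, measured 310.4, 365 and 294 CPM and then 312, 377 and 316 CPM, with overlapping groups (log2 0.05 ± 0.107, edgeR adjusted p = 0.739). Cox6b2, the testis isoform of subunit 6B, went from 3.27, 2.58 and 3.45 CPM to 5.87, 7.10 and 5.62 CPM without overlap (log2 1.00 ± 0.174, edgeR adjusted p = 0.00392). Cox6b1, its widely expressed counterpart, measured 237, 249 and 195 CPM in shControl and 199, 221 and 159 CPM in shOpa1. Those groups overlapped, but every shOpa1 library lay below the shControl library of the same number, and the gene was lower in the blocked fit (log2 -0.23 ± 0.139, edgeR adjusted p = 0.228, blocked 0.000752).

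**Figure D3:**
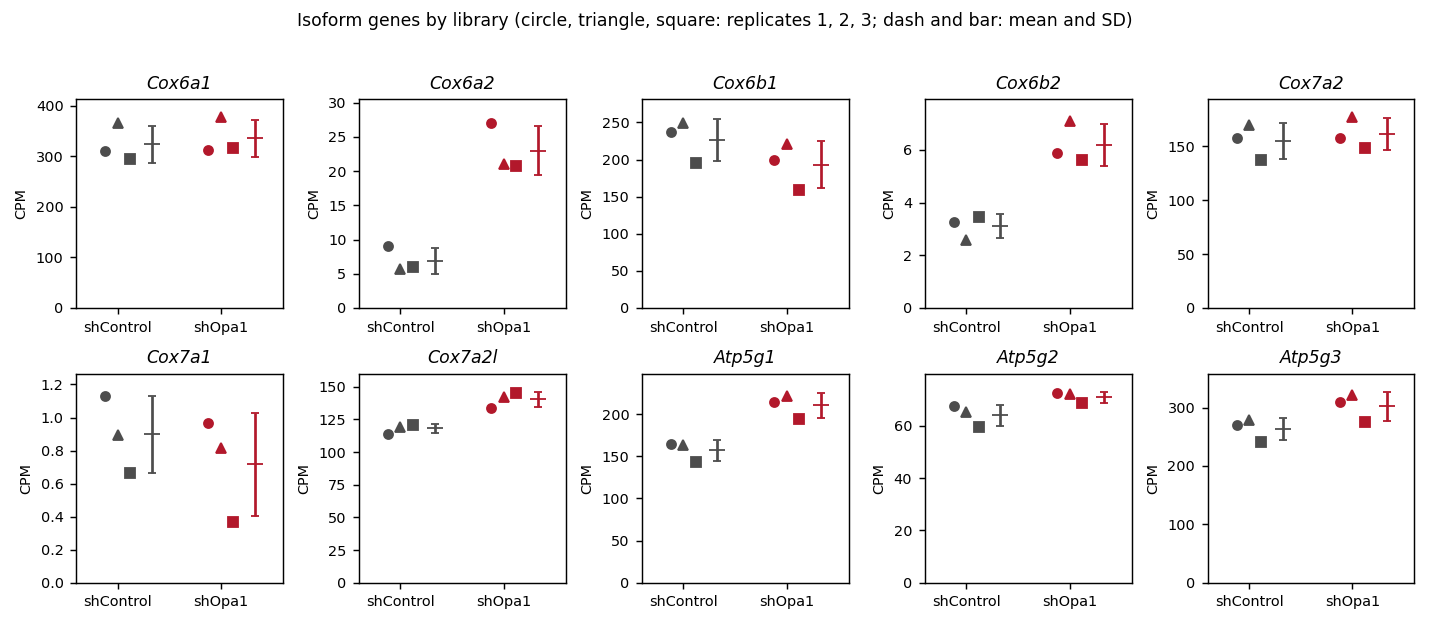
TMM-scaled CPM (y axes, from 0 and on different scales) of isoform genes in each library, with the replicate number as the symbol and the mean and SD of 3 libraries at the side. Cox6a2 and Cox6b2 lie higher in every shOpa1 library, at 20.8 to 27.1 and 5.62 to 7.10 CPM, while Cox6a1, Cox6b1 and Cox7a2 overlap between groups.

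Both minor isoforms stayed the smaller share of their family's counts. Cox6a2 made up 2.83%, 1.52% and 1.98% of the counts of Cox6a1 and Cox6a2 together in shControl and 8%, 5.28% and 6.17% in shOpa1. The log2 ratio of Cox6a2 to Cox6a1 was higher by 1.64 in shOpa1, by 1.52, 1.76 and 1.62 within the numbered pairs. An exact two-sided permutation test over the libraries gave p = 0.10, the smallest that 3 against 3 allows, and 0.18 after adjustment over the 7 isoform ratios compared. Cox6b2 held 1.36%, 1.03% and 1.74% of the subunit 6B counts in shControl and 2.86%, 3.11% and 3.41% in shOpa1, a log2 ratio higher by 1.14 (exact permutation p = 0.10, adjusted 0.18). Per kilobase of the longest transcript, shControl levels were 566 CPM for Cox6a1 and 10.1 for Cox6a2, and 368 for Cox6b1 and 5.30 for Cox6b2. Neighbouring genes share 10.3% of the exon bases of Cox6a2 and none of those of Cox6b2. Pvalb, the marker of parvalbumin interneurons, was at 0.293, 0.112 and 1.19 CPM in shControl and 0.451, 0.613 and 0.581 CPM in shOpa1. The 8 striated muscle markers summed to 17.9 to 19.7 CPM in shControl and 18.3 to 19.4 CPM in shOpa1. Of the 4 tested 0 were higher and 1 lower (2 and 2 in the blocked fit). Over all tested genes 18.9% were higher and 20% lower (28.8% and 30.7% with the block). In the blocked fit Acta1 (log2 0.41) and Actn2 (0.40) were higher, and Myh6 (-0.86) and Myh7 (-0.62) lower. Actn2 averaged 7.27 CPM in shControl and 9.63 CPM in shOpa1, whereas Ckm stayed at or under 0.126 CPM in every library and Mb at or under 0.293 CPM. The muscle isoform was higher while the summed level of these markers, which moved in both directions, overlapped between groups. Their part in it was not tested.

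The remaining isoform families showed smaller or no differences. Cox7a2l, a relative of subunit 7A that joins complexes III and IV into supercomplexes, measured 114, 119 and 121 CPM in shControl and 134, 142 and 145 CPM in shOpa1 (log2 0.26 ± 0.0592, edgeR adjusted p = 0.0125). Its groups did not overlap, but a near-identical copy held 20.7% as many counts as the gene itself, and the adjusted p became 0.0554 when shControl replicate 1 was left out and 0.0515 when shOpa1 replicate 2 was. Cox7a2 (log2 0.05 ± 0.101) and the muscle isoform Cox7a1, at 1.13, 0.897 and 0.667 CPM in shControl and 0.967, 0.818 and 0.367 CPM in shOpa1 (log2 -0.32 ± 0.392), overlapped between groups. The log2 ratio of Cox7a1 to Cox7a2 differed by -0.28 (exact permutation p = 0.30) and that of Cox7a2l to Cox7a2 by 0.20 (p = 0.30). The filter on low counts dropped the lung isoform Cox4i2, with 5 counts over all 6 libraries, the muscle isoform Cox8b with 3, the testis isoforms Cox7b2 with 33 and Cox8c with 0. The 0 counts of Cox8c allow up to 0.0171 CPM over the 6 libraries, for counting error only.

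The broadly expressed subunits of complex IV moved little. Cox4i1, the regulatory subunit 4, measured 339.9, 376 and 311 CPM in shControl and 376, 418 and 349 CPM in shOpa1, a log2 fold change of 0.15 that was called only in the blocked fit (adjusted p = 0.00637). Cox5a (0.24), Cox5b (0.18), Cox6c (0.15), Cox8a (0.18) and Cox7b (0.15) were also higher only in the blocked fit, each with overlapping groups. Cox7b stood out by its libraries, at 156, 257 and 141 CPM in shControl and 169, 287 and 157 CPM in shOpa1: replicate 2 was far above the others in both groups. Cox7c had a log2 fold change of -0.10 and passed neither fit (blocked adjusted p = 0.0828).

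Assembly factors of complex IV were called in both directions, and their difference from the subunits was not tested. Of 12 factors 11 were tested, 6 were higher (54.5%) and 2 lower (18.2%), beside 18.9% and 20% of all tested genes. The blocked fit called 6 higher (54.5%) and 3 lower (27.3%), beside 28.8% and 30.7% of all genes. The lower factors were thus no more frequent than lower genes at large. In the haem branch Cox10, which makes haem O from haem B, went from 32.9, 35.1 and 35.6 CPM in shControl to 54.2, 59.3 and 57.99 CPM in shOpa1 (log2 0.73 ± 0.0681, edgeR adjusted p = 0.000309). Cox15, which turns haem O into haem A, went from 63.4, 62.3 and 61.2 CPM to 58.7, 55.1 and 54.6 CPM, without overlap but called lower only in the blocked fit (log2 -0.15 ± 0.0606, edgeR adjusted p = 0.0889, blocked 0.0231). Per kilobase of the longest transcript, Cox10 was at 11.8 CPM in shControl and 19.6 in shOpa1, and Cox15 at 12.98 and 11.7. Per kilobase of coding sequence the levels were 25.9 and 42.9 for Cox10 and 50.2 and 45.2 for Cox15.

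Of the 4 tested members grouped here as copper factors 2 were higher and 2 lower, beside 18.9% and 20% of all tested genes. Cox17, the chaperone that supplies copper, rose from 6.04, 6.02 and 5.23 CPM to 8.09, 7.86 and 7.06 CPM (log2 0.41 ± 0.125, edgeR adjusted p = 0.0353). Cox11, which delivers copper to the catalytic site of subunit 1, rose from 5.74, 5.38 and 5.30 CPM to 7.57, 7.65 and 7.70 CPM (log2 0.48 ± 0.11, edgeR adjusted p = 0.0122), with 48.3% of its exon bases shared with another gene. Sco1, which works on the copper site of subunit 2, fell from 11.4, 11.4 and 11.01 CPM to 9.02, 8.67 and 8.50 CPM (log2 -0.37 ± 0.0936, edgeR adjusted p = 0.0175). Cox19, a copper-related factor of the intermembrane space, fell from 52.8, 51.98 and 53.4 CPM to 37.7, 37.5 and 36.9 CPM (log2 -0.50 ± 0.057, edgeR adjusted p = 0.000714). Groups overlapped for none of these 4 genes. Sco2, the partner of Sco1, had 5 counts in all, but 91.8% of its exon bases lie under other genes, so its level is uncertain. Calls were lost without 1 library for Cox17 (edgeR adjusted p = 0.0762 to 0.122, all libraries but shOpa1 replicate 3) and for Sco1 (0.0598, 0.0611 and 0.0695, without shControl replicate 1, shControl replicate 2 and shOpa1 replicate 2).

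Cox19 and Sco1 were also the 2 members whose 3' UTR holds the sequence GAAACTA, which an earlier report on the same fold changes picked out, so their direction is no independent support for it. The sites are shown with the 7 bases in capitals, read from GENCODE transcripts on GRCm38, at chr5:139336201-139336227 (minus strand) for Cox19 and chr11:67064192-67064218 (plus strand) for Sco1.
Cox19: cacttttataGAAACTAtaaaatcctt
Sco1: agtctgccagGAAACTAccatgagtta
The site lies at base 2074 of a 3' UTR of 2102 bases in Cox19 and at base 162 of 1532 in Sco1. Carriers made up 2.99% of the 67 members searched and 9.63% of the 13846 tested genes searched. Without these carriers the members held 2 lower genes, Uqcc3 and Atp5s.

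Other complex IV factors act on the mitochondrially made subunits. Cox14, which binds newly made subunit 1, rose from 36.3, 39.2 and 38.5 CPM to 55.2, 58.99 and 59.5 CPM (log2 0.61 ± 0.0659, edgeR adjusted p = 0.000561). Cox18, which moves the tail of subunit 2 across the membrane, rose from 17.6, 16.4 and 17.1 CPM to 21.9, 22.3 and 23.4 CPM (log2 0.41 ± 0.077, edgeR adjusted p = 0.0056). Both lay higher in every shOpa1 library than in any shControl library. Surf1, known for Leigh syndrome when mutated in humans, had 51.3, 55.01 and 49.3 CPM and then 60.8, 62.2 and 57.5 CPM (log2 0.21 ± 0.0691, edgeR adjusted p = 0.0436). Cox16 (log2 -0.09) and Cox20 (-0.10), which act on subunit 2, were not called in either fit, and 56.8% and 91.1% of their exon bases are shared with other genes. The Surf1 call was lost without any library but shOpa1 replicate 3 (edgeR adjusted p = 0.0513 to 0.144).

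In complex V Atp5c1 and Atp5g1 were higher, and most other subunits passed only in the blocked fit. Both code for parts of the rotor, whose other genes Atp5d, Atp5e, Atp5g2 and Atp5g3 were not called without the block. Of 17 tested subunits 2 were higher (11.8%, below the 18.9% of all tested genes) and 0 lower. The blocked fit called 13 higher (76.5%, beside 28.8% of all genes) and 1 lower (5.88%, beside 30.7%). Fold changes were positive in 16 of the 17, and the median was 0.20. Atp5b, the catalytic beta subunit, measured 1334, 1362 and 1137 CPM in shControl and 1563, 1689 and 1313 CPM in shOpa1. The shOpa1 replicate 3 library lay inside the shControl range (log2 0.25 ± 0.111, edgeR adjusted p = 0.114, blocked 0.000334). Atp5a1, the alpha subunit, measured 991, 968 and 870.2 CPM and then 1141, 1166 and 1001 CPM, without overlap and called only in the blocked fit (log2 0.23 ± 0.0827, edgeR adjusted p = 0.0659, blocked 0.000571). Atp5c1, the gamma subunit of the rotor shaft, was called in both fits, from 251, 253 and 217 CPM to 312, 333 and 272 CPM (log2 0.35 ± 0.0956, edgeR adjusted p = 0.0245). The other parts of the head and shaft were Atp5d (delta, log2 0.12), higher only in the blocked fit, and Atp5e (epsilon), which went the other way. Atp5e measured 102, 99.8 and 89.8 CPM in shControl and 84.6, 91.7 and 77.9 CPM in shOpa1, lower in the blocked fit only (log2 -0.20 ± 0.0835, edgeR adjusted p = 0.0982, blocked 0.00489).

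Subunit c, the ring of the rotor, is encoded by Atp5g1, Atp5g2 and Atp5g3, which give one mature protein from different precursors. Atp5g1 measured 165, 164 and 143 CPM in shControl and 215, 222 and 194 CPM in shOpa1, without overlap (log2 0.42 ± 0.0816, edgeR adjusted p = 0.00628). Atp5g2 (log2 0.15) and Atp5g3 (0.20) were called higher only in the blocked fit (adjusted p = 0.0238 and 0.00154). Relative to its sister genes, Atp5g1 was higher by 0.27 against Atp5g2 and by 0.22 against Atp5g3 on the log2 scale, in 3 of 3 pairs each (exact permutation p = 0.10 for each ratio, the smallest possible, adjusted 0.18), while Atp5g2 to Atp5g3 differed by -0.05 (p = 0.50). Atp5g1 has 5 near-identical copies with 7.54% as many counts, the closest at 99.76% identity. Atp5g2 has 4, the closest at 100% identity, and Atp5g3 has 0. Per kilobase of coding sequence Atp5g3 was the highest in shControl at 618 CPM, with Atp5g1 at 383 and Atp5g2 at 145, but per kilobase of the longest transcript Atp5g1 was the lowest at 33.4 CPM, so the order of these genes depends on the transcript used. The counting command sets no option for reads with several matches, and the part of the copies in this order was not tested.

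In the stalk that holds the head still, Atp5o (the OSCP subunit, log2 0.30), Atp5f1 (subunit b, 0.20), Atp5h (subunit d, 0.21) and Atp5j (subunit F6, 0.16) were higher only in the blocked fit, and 47.9% of the exon bases of Atp5o are shared with 3 other gene models, Gm15976, D430001F17Rik and a second identifier that carries the symbol of Atp5o. That second identifier had 0 counts and was not tested. Of the small membrane subunits, Atp5md (0.24) and Atp5k (0.17) were higher only in the blocked fit, and Atp5j2 (0.05), Atp5l (0.06) and Atp5mpl (0.06) in neither. Atp5s, named for the coupling factor B of ATP synthase and not one of its core subunits, fell from 17.5, 16.4 and 18.9 CPM to 14.4, 14.9 and 12.2 CPM (log2 -0.35 ± 0.11, edgeR adjusted p = 0.0421). Leaving out each of the 6 libraries in turn lost the Atp5s call (edgeR adjusted p = 0.0635 to 0.101), and leaving out each but shOpa1 replicate 3 lost the Atp5c1 call (0.0521 to 0.089). Without shOpa1 replicate 3 the complex V genes higher numbered 8, and 4 by DESeq2 on all libraries. Over all genes 3168 and 3169 were higher in these fits, and 3130 in the main fit.

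Among abundant subunits, those with longer coding sequences had larger fold changes. Over the 42 subunits with at least 50 CPM in shControl, the log2 fold change correlated with log2 coding length (Pearson r 0.55, Spearman rho 0.65, across genes of the same libraries, which are not independent). The median fold change was 0.11 for the 22 genes under 400 coding bases, 0.21 for the 11 genes of at least 400 and under 800 and 0.35 for the 9 of 800 or more. Without the block 3 of the 22, 2 of the 11 and 5 of the 9 were higher and 0 lower. The blocked fit called 11 of the shortest class higher and 2 lower (Cox6b1 and Atp5e), and called all 11 and all 9 of the longer classes higher. The blocked fit called 28.8% of all tested genes higher and 30.7% lower. Tested protein-coding genes of at least 50 CPM did not follow this order, with medians of 0.05, 0.06 and -0.07 in the same classes. In the shortest class Cycs (318 coding bases, log2 0.66) and Uqcrb (336 bases, 0.37) lay above the median of the longest class. The minimum of 50 CPM leaves out the short isoform genes Cox6a2, Cox6b2 and Cox7a1: over all 45 tested subunits r was 0.22 and rho 0.58, and over all 67 members r was 0.15 and rho 0.32.

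**Figure D4:**
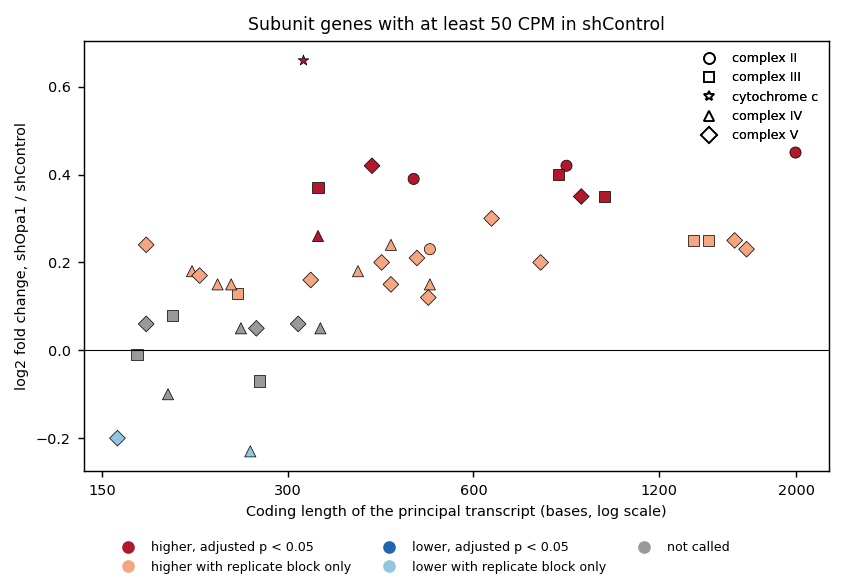
Log2 fold change (y axis) against coding length of the principal transcript in bases (x axis, log scale) for the 42 subunit genes with at least 50 CPM in shControl, with symbols by complex and colours by call. Genes of 800 or more coding bases lie between 0.23 and 0.45, and genes under 400 spread from -0.23 to 0.66.

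The mitochondrially encoded partners of these nuclear subunits went the opposite way. All 6 were lower, with a median log2 fold change of -1.30. mt-Cytb, the cytochrome b of complex III, measured 8676, 11121 and 6373 CPM in shControl and 3468, 3665 and 2243 CPM in shOpa1 (log2 -1.48 ± 0.26, edgeR adjusted p = 0.00556). mt-Co1, the catalytic subunit of complex IV, went from 13508, 18134 and 10204 CPM to 6109, 7050 and 4331 CPM (log2 -1.26 ± 0.257, edgeR adjusted p = 0.00987). For neither gene did the groups overlap. mt-Co2 (-1.34), mt-Co3 (-1.37), mt-Atp6 (-1.22) and mt-Atp8 (-0.96) were lower too. These 4 had at most 26.4 CPM in any library, and the authors' counting command sets no option for reads with several matches, per the file headers. Complex II has no mitochondrial subunit, so this comparison covers complexes III to V.

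**Figure D5:**
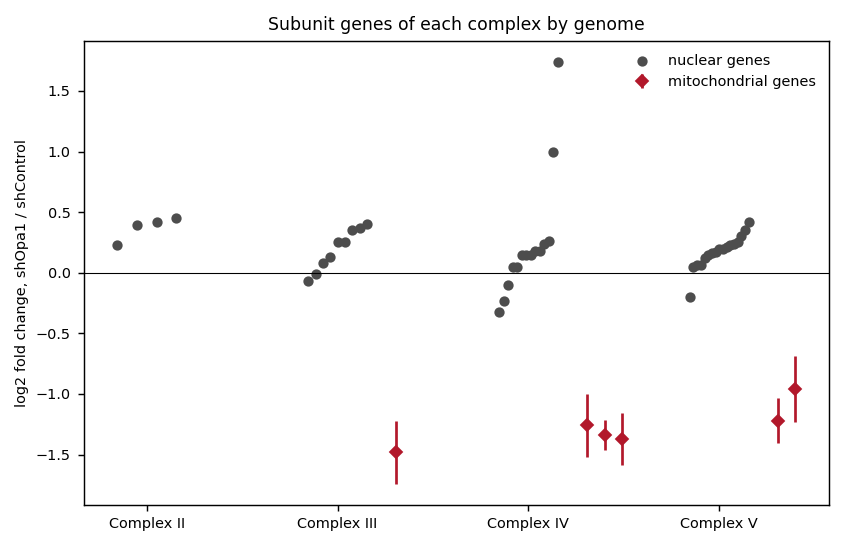
Log2 fold change (y axis) of nuclear subunit genes (grey circles, tested genes in rising order within each complex) and mitochondrially encoded subunit genes (red diamonds with bars of 1 standard error). The 6 mitochondrial genes lie between -1.48 and -0.96, below every nuclear subunit, the lowest of which is Cox7a1 at -0.32.

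Other nuclear assembly genes of these complexes, outside the symbols above, held genes called in each direction. Of 37 listed, 33 were tested, 13 were higher and 5 lower, with a median of 0.21, beside 18.9% and 20% of all tested genes. The blocked fit called 15 higher and 9 lower, beside 28.8% and 30.7% of all genes, so the lower genes were no more frequent than in all genes. The largest fall was in complex V assembly: Atpaf1, the chaperone of the beta subunit, measured 25.5, 25.7 and 24.3 CPM in shControl and 12.4, 12.4 and 10.1 CPM in shOpa1 (log2 -1.12 ± 0.105, edgeR adjusted p = 0.000318). Tmem70, which helps form the c ring, was lower too (log2 -0.54 ± 0.115, adjusted p = 0.00882). The UTRs of both Atpaf1 and Tmem70 hold GAAACTA, as do 9.63% of the tested genes searched. That sequence was picked out on these same fold changes, so their direction is no independent support for it. Of the other lower genes in these lists, Hccs and Pet100 hold 0 copies, and the UTR of Stmp1 was not searched. Oxa1l, the insertase of the inner membrane, was higher (0.44 ± 0.0638, adjusted p = 0.00184), as was Tmem242 (0.25). Around complex IV, Coa5 (0.49), Higd2a (0.45), Lrpprc (0.30), which stabilises mitochondrial messenger RNA, and Fastkd3, also a mitochondrial RNA-binding protein gene, (0.60) were higher. Hccs, which attaches haem to cytochromes c and c1 and was chosen for mention after its value was seen, was lower (-0.45 ± 0.096, adjusted p = 0.0087). Its substrates Cycs and Cyc1 were among the higher members. Around complex III, Hscb, a co-chaperone of iron-sulfur transfer, was higher (0.98 ± 0.175, adjusted p = 0.00428) and Stmp1 lower (-0.64 ± 0.0981, adjusted p = 0.00232). In the intermembrane space, Gfer (0.44) and Aifm1 (0.24), of the import pathway for proteins with paired cysteines, were higher. Without any 1 of shControl replicates 1 and 2 and shOpa1 replicates 1 and 2, the number higher was 8.

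Interneuron markers were abundant and those of glia and vessels low. The marker calls below stand beside 18.9% of all tested genes higher and 20% lower, 28.8% and 30.7% in the blocked fit. Interneuron markers summed to 2535 to 3091 CPM in shControl and 1748 to 2351 CPM in shOpa1, with 1 of 8 higher and 4 lower (1 and 6 in the blocked fit). Astrocyte markers summed to 39.03 to 127 CPM and 24.01 to 68.7 CPM (1 of 7 higher and 2 lower, 1 and 6 in the blocked fit). Gfap, the 1 that was higher, was at most 1.77 CPM in any library, while Slc1a3 reached 61.8 CPM in shControl replicate 3. Oligodendrocyte lineage markers summed to 45.9 to 72.2 CPM and 37.4 to 52.3 CPM (2 of 6 lower, 3 in the blocked fit). Sox10 had 0 counts in all shControl libraries, while Mbp averaged 26.4 CPM in shControl and 27.2 CPM in shOpa1. Microglial markers summed to 5.49 to 7.92 CPM and 3.27 to 4.71 CPM (1 tested, Aif1, which was lower in both fits). Aif1 reached 7.42 CPM in shControl replicate 1, and P2ry12 was at most 0.0419 CPM. Pericyte markers summed to 9.45 to 18.1 CPM and 8.64 to 15.6 CPM, and endothelial markers to 1.80 to 3.30 CPM and 1.61 to 3.88 CPM, with 0 called in either list without the block and 1 pericyte marker, Notch3, lower in the blocked fit (adjusted p = 0.0481). Their part in the results was not tested.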

How the data were processed

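RNA-seq of 6 libraries of mouse cortical neurons was used, 3 shControl and 3 shOpa1, grouped by the sample labels. A stranded mRNA kit was used, per the labels' protocols. Read counts per gene and gene lengths were made by the authors with featureCounts 1.6.0 on paired reads and the Ensembl 99 annotation (GRCm38), per the file headers. The command sets no strand option, so overlapping genes cannot be separated. HISAT2, DESeq2 and mm10 are named, with no version, in the submitters' processing notes. The authors' deposited comparison table holds log2 fold changes with standard errors, a score (fold change over error), p-values and normalised signal (counts over a size factor); its fold changes equal those of DESeq2 with replicate 3 as a batch, with 0 genes differing by over 1e-05. Library totals were 24676709, 28142558 and 28253400 counts in shControl and 29476268, 32961580 and 31577722 in shOpa1. Replicates differed by more than sampling noise (chi-square per degree of freedom 6.69 to 34.1).

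Counts were tested with edgeR 4.0.16 in R 4.3.3 (TMM scaling, default low-count filter, robust quasi-likelihood test, group as the only term), with Benjamini-Hochberg adjustment over all 16562 genes and a threshold of 0.05. Standard errors are the fold change (log2) over the square root of F. Deviations from group means correlated at 0.595, 0.608 and 0.714 between libraries of the same number, and 6 of 6 libraries correlated best with their own number. A blocked fit, which treats replicates as pairs, is therefore given beside the counts. All standard errors, and the edgeR p-values not given for the blocked fit, come from the fit without the block and ignore this pairing. The permutation tests ignore it too. Isoform ratios used log2(CPM + 0.5) and exact two-sided permutation tests. Alternatives were RLE and upper quartile scaling, other filters, DESeq2 1.42.0, limma-voom 3.58.1, replicate 3 as a batch, replicates 1 and 2 only, and leaving out each library. The fits were tested on simulated data.

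Symbols came from GENCODE release 21 and a RefSeq table. Near-identical copies share at least 90% identity over 100 coding bases; the members counted as overlapped share at least 20% of exon bases. Named genes were members called in either fit, isoform families, catalytic subunits and members dropped by the filter, and in the other assembly lists at most the 4 with the smallest p. The members and lists were chosen with earlier results of these data known. Groups of 3 libraries were too small for an outlier test. Coa1 was not analysed here.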

Additional observations from a re-analysis of the deposited data

How the results depend on the processing

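The 20 members higher became 42 in the fit with the replicate block, 38 with replicate 3 as a second batch and 34 on replicates 1 and 2 only. Under other scalings, filters, DESeq2 and limma-voom they numbered 19 to 26. Over all genes the 3130 higher became 4770, 4521 and 4143 in those 3 fits and 3033 to 3634 in the others. The 3312 lower became 5081 with the block, 4832 with replicate 3 as a batch and 3104 with no low-count filter. The 4 members lower became 7 with the block, 7 with replicate 3 as a batch, 2 with no low-count filter and 2 with carriers of GAAACTA left out. Leaving out 1 library gave 11 to 30 members higher and 2 to 3 lower, beside 2168 to 3168 higher and 2421 to 3458 lower over all genes. The other assembly genes had 13 higher and 5 lower, 9 lower with the block and 8 with replicate 3 as a batch, and 8 to 12 higher and 4 to 5 lower without 1 library. The cause was not tested. Of the 24 called members 13 kept the call without each library and 11 lost it in at least 1 case. Among the 52 named members tested, fold changes turned sign without shControl replicate 3 or shOpa1 replicate 2 for Cox6a1 (-0.04 to 0.14 without 1 library), Cox7a2 (-0.03 to 0.12) and Cox7b (-0.18 to 0.46). Without members that have a near-identical copy 15 were higher and 4 lower, and without members overlapped by other genes, an alternative chosen after seeing the data, 19 and 4. The median of the members stayed between 0.13 and 0.24 in these fits. The isoform ratios changed sign in 0 of 77 alternatives, and with the replicate block an exact sign-flip test over 3 pairs cannot go below p = 0.25. Counts limit Cox20, Cox7a1 and the 6 untested members, which sit near 0.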

Other observations

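Near-identical copies of coding sequence, 85 in all, were found for 26 of the 73 members. Of the 25 such members tested 5 were higher and 0 lower (16 and 0 in the blocked fit), and of the 42 tested without a copy 15 were higher and 4 lower (26 and 7). Among all tested genes 18.9% were higher and 20% lower, 28.8% and 30.7% in the blocked fit. Without the block the 5 of 25 higher lay near the share of all genes, and in the blocked fit the 16 of 25 lay above it. The difference between members with and without a copy was not tested. The copies of Atp5l were the most numerous at 17 and held 2.60% as many counts as the gene, and the single copy of Cox7a2l held 20.7%.

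Summed over its genes, subunit c measured 503, 507 and 444 CPM in shControl and 596, 617 and 537 CPM in shOpa1, with no overlap. Subunit 6B measured 241, 251 and 199 CPM and 205, 228 and 165 CPM. The sum of Cox6b1 and Cox6b2 was lower within each numbered pair although Cox6b2 was higher. Subunit 6A measured 319, 371 and 300.3 CPM and 339, 398 and 337 CPM, with overlapping groups.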
